A study of Mus musculus with 12 samples.

Results

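The liver takes organic ions, drugs and hormone conjugates from the blood with uptake carriers and passes them on with ATP-driven pumps. The transcripts of 39 such genes, of the 13097 genes in the deposited count table, are described here. They were taken by name: every gene whose symbol begins with Slc22a (organic cation, anion and carnitine transporters), Slco and a digit (organic anion transporting polypeptides) or Abcb, Abcc or Abcg and a digit (ATP-binding cassette transporters). Of 44 matching genes, 5 were left out by name (Abcb11, Abcc3, Abcc4, Abcg5 and Abcg8). By known role or family membership, 17 of the 39 were classed as uptake carriers of the plasma membrane (10 of the Slc22a and 7 of the Slco family). A further 10 were exporters of the plasma membrane (Abcb1a, Abcb1b, Abcb4, Abcc1, Abcc2, Abcc5, Abcc6, Abcc10, Abcg1 and Abcg2). The others were 5 ABC transporters of mitochondria and other organelles (among them Abcb6, Abcb8, Abcb9 and Abcb10), 4 Slc22a genes of other or poorly known function, and Abcc9, Abcc12 and Abcg3. Another 23 genes of these families, among them Slc22a2, Slc22a6, Slc22a8 and Abcb5, were not analysed here.

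In a hepatocyte, uptake carriers sit in the sinusoidal membrane, which faces the blood, and move substrates without hydrolysing ATP. ABC transporters hydrolyse ATP, and those of the canalicular membrane load bile with conjugates, phospholipid and drugs. The balance of uptake and export sets how long a drug or a conjugate stays in the cell.

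Whole liver was taken from 12 female C57BL/6 mice aged 3 months, with 3 individual mice in each of 4 groups. Wild type mice and mice labelled as liver-specific knockouts of Sirt6, a chromatin deacylase gene, were either pair-fed or ethanol-fed. Pair-fed mice received an isocaloric control diet and a binge of maltose dextrin, while over the same 10 days ethanol-fed mice drank the Lieber-DeCarli diet at 5% ethanol and were then given ethanol as a binge (5 g/kg), so diet and binge cannot be told apart. The labels name no Cre driver for the deletion. Sirt6 counts did not follow the label. Pair-fed libraries held 51, 49 and 68 Sirt6 reads in wild type and 52, 46 and 47 in the labelled knockout. Ethanol-fed libraries held 67, 54 and 60 in wild type against 53, 58 and 62 in the labelled knockout, so that group name is kept as a label throughout. Counts over a whole gene cannot show whether part of it was deleted, so whether the deletion took place was not tested. Total counts per library lay between 17305141 and 18279809. The biological coefficient of variation between mice was 0.117 and 0.114 in the pair-fed groups, and 0.281 and 0.247 in the ethanol-fed wild type and labelled knockout groups.

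Levels of different genes were compared as RPKM, reads scaled by the exonic length given in the table and by library size. In wild type pair-fed liver the highest levels were those of Slco1b2, a sinusoidal carrier of bilirubin conjugates, bile acids and drugs, at 413 ± 18.8 RPKM (SD, n = 3). Abcc2, the canalicular pump of bilirubin glucuronides, was at 150 ± 14.2 RPKM and Abcb4, the canalicular phosphatidylcholine transporter, at 94.7 ± 17 RPKM, and both together held 73.8% of the summed exporter RPKM. The ranges of Slco1b2 and Abcc2 each lay apart from the next gene in the order, whereas from Abcb4 to Abcc6 neighbouring genes overlapped (Abcb4, Slc22a18, Slc22a26, Slco2b1, Slco1a4, Abcc6). At the lower end, Abcb1b was at 0.338 ± 0.0976, Slco4a1 at 0.325 ± 0.0427, Slc22a21 at 0.159 ± 0.0861 and Abcc12 at 0.051 ± 0.0505 RPKM. Levels therefore spanned from 413 RPKM down to 0.051 RPKM.

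**Figure D1:**
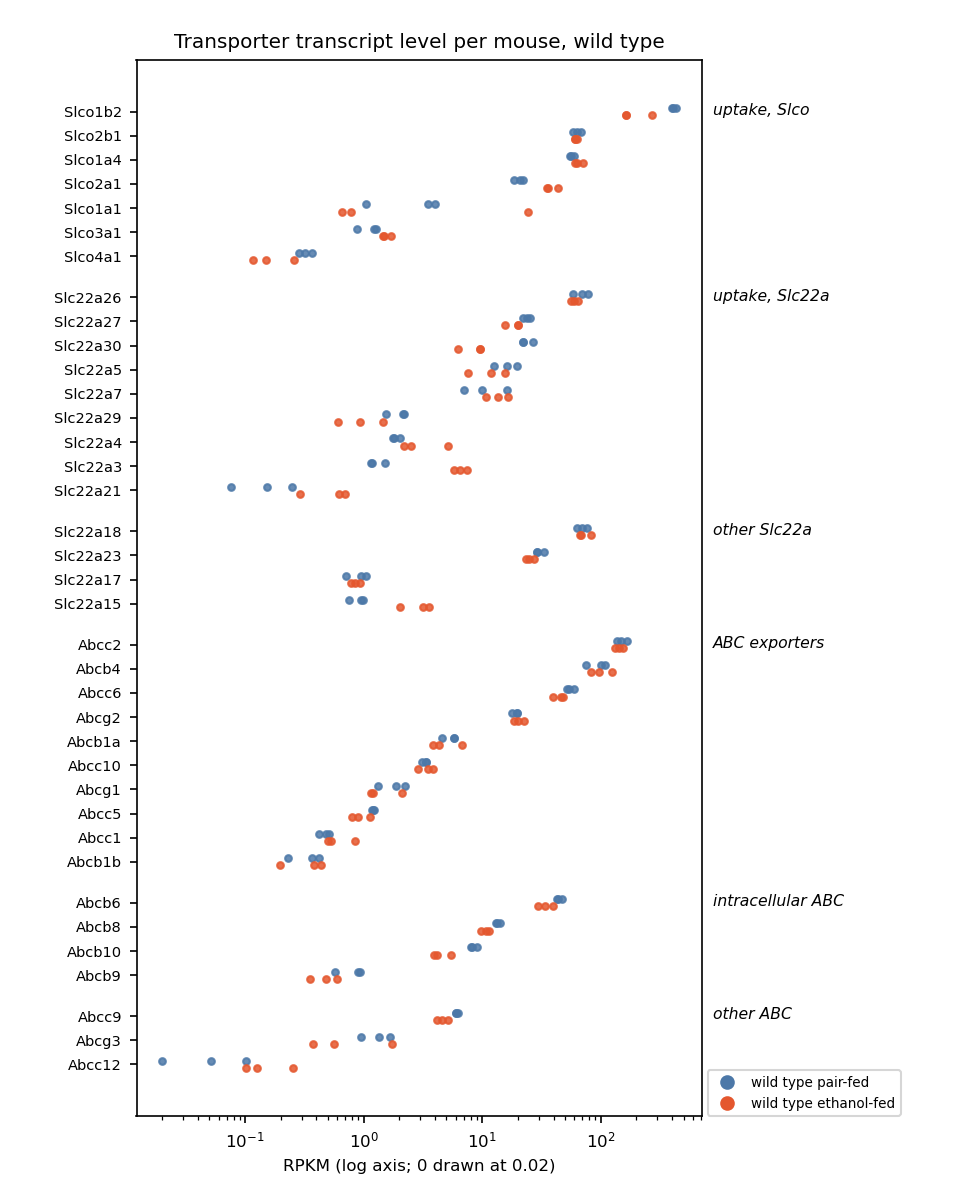
Level of 37 of the 39 transporter genes in wild type mice, as RPKM on a log axis, with 1 point per mouse (3 pair-fed in blue, 3 ethanol-fed in orange) and genes grouped by role. Slco1b2 leads the uptake carriers and Abcc2 and Abcb4 the exporters; the orange points of Slco1b2 lie left of the blue ones, while those of Abcc2 overlap them.

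With ethanol feeding some of the uptake carriers changed, in both directions, and few of the exporters did. In wild type mice 10 of the 39 genes differed between ethanol-fed and pair-fed mice, 4 higher and 6 lower (edgeR quasi-likelihood test, Benjamini-Hochberg adjusted p under 0.05 over all genes). Among all 13097 genes, 33.4% passed in this comparison (18.9% higher and 14.5% lower), against 25.6% of the 39. In mice labelled knockout 15 genes passed, 6 higher and 9 lower, which is 38.5% of the 39, against 24.6% of all genes (13.7% higher and 10.9% lower). When libraries were scaled to their total counts and not by TMM, the calls were 5 higher and 3 lower in wild type, and 6 higher and 7 lower in the labelled knockout. Under it the log2 fold changes of all genes shifted, their median going from 0.027 to 0.179 in wild type and from 0.037 to 0.138 in the labelled knockout. The median of the 39 genes was -0.131 in wild type, which turned to 0.03 under total counts, and -0.247 in the labelled knockout, where it was -0.125 under total counts. Leaving out wild type pair-fed replicate 3 took the count in wild type from 10 to 6, and leaving out each mouse in turn gave 6 to 13. DESeq2 kept all calls made by edgeR and added others in each label. Among those added were Abcb8, Abcc6, Abcc12, Slc22a4 and Slc22a27 in wild type and Abcb9 and Abcg3 in the labelled knockout. The shares of 25.6% and 38.5% therefore depend on the method.

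Of the genes called, 8 passed in both genotype labels, and all 8 moved the same way. Among them, Slc22a3, Slco2a1 and Slc22a15 were higher, and Slco1b2, Slc22a29, Slc22a30 and Abcb10 were lower. Abcb6 and Slc22a21 passed in wild type alone and Abcb8, Abcc12, Abcb1b, Slc22a26, Slc22a27, Slco3a1 and Slco4a1 in the labelled knockout alone, but none of these differed in response between the labels by the interaction test below. For 22 of the 39 genes no ethanol difference passed in either label. The 3 ethanol-fed values lay wholly outside the pair-fed range for 21 of the 39 genes in wild type (47% of all genes) and for 22 in the labelled knockout (43.9% of all genes).

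**Figure D2:**
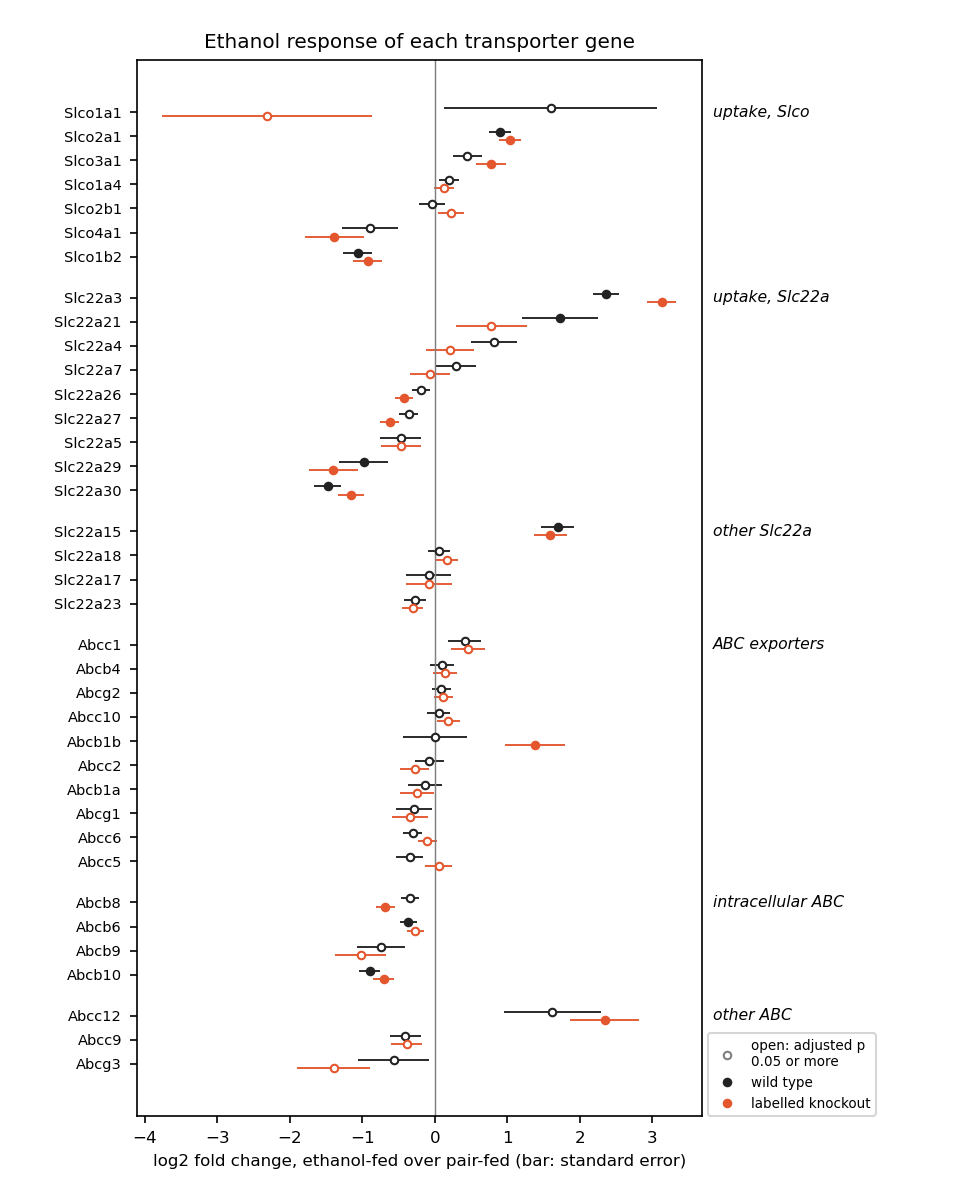
Log2 fold change of ethanol-fed over pair-fed mice for 37 of the 39 genes, in wild type (black) and labelled knockout (orange), with bars of 1 standard error. Filled points passed an adjusted p of 0.05 and open points did not. Among the uptake genes Slc22a3 lies at 2.36 and 3.13 and Slc22a30 at -1.48 and -1.15. All exporters but Abcb1b lie between -0.345 and 0.459 in both labels.

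Of the 17 uptake carriers, 6 passed in wild type (3 higher, 3 lower), a share of 35.3% that is near the 33.4% of all genes. In the labelled knockout 9 passed (3 higher, 6 lower), which is 52.9% against 24.6% of all genes. Of the 10 exporters, 0 passed in wild type and 1 in the labelled knockout (Abcb1b, higher), against the same 33.4% and 24.6%. At an unadjusted p under 0.05, 1 exporter (Abcc6) and 11 uptake carriers passed in wild type; DESeq2 called Abcc6 there, and the fit without wild type ethanol-fed replicate 1 called Abcg1, a sterol exporter, lower. Under total-count scaling the uptake calls in wild type were 4 higher and 2 lower. The median log2 fold change of the uptake carriers was -0.035 in wild type (0.116 under total counts) and -0.424 in the labelled knockout (-0.325), and that of the exporters -0.032 (0.123 under total counts) and 0.086 (0.186). A difference between the classes as wholes was not tested.

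The intervals of the fold changes show what these data leave room for. In wild type the 95% confidence intervals of all 10 exporters lay within a 2-fold change either way, between -0.941 and 0.96 on the log2 scale. In the labelled knockout this held for 9 of 10, with Abcb1b outside. Of the 17 uptake carriers it held for 7 in each label.

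Slc22a3 (chr17:12419974-12507704, mm10), which encodes an organic cation carrier that also clears monoamines, had the largest rise of the 39 genes in both labels. In wild type, its TMM-normalised CPM were 4.10, 4.03 and 5.32 on the control diet and 20.2, 26.3 and 22.8 on ethanol. The labelled knockout had 1.40, 1.24 and 1.44 on the control diet and 13.8, 10.2 and 11.9 on ethanol. All 4 groups were separate from each other, with the pair-fed labelled knockout lowest and the ethanol-fed wild type highest. The rise with ethanol was 5.15-fold in wild type (log2 fold change 2.36 ± 0.18, adjusted p = 9.43e-06) and 8.76-fold in the labelled knockout (3.13 ± 0.20, adjusted p = 2.93e-06). No 50-base stretch of its transcripts was shared with another gene.

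Slco2a1 (chr9:103008489-103087849), the prostaglandin transporter, was higher in both labels. Wild type CPM were 83.7, 75.5 and 88.7 without and 141.9, 143.5 and 177.2 with ethanol, and 59.8, 72.1 and 70.9 against 136.2, 166.6 and 113.7 in the labelled knockout. Every ethanol-fed mouse was above every pair-fed mouse, with log2 fold changes of 0.90 ± 0.16 (adjusted p = 0.00109) and 1.04 ± 0.16 (adjusted p = 0.000768). Slco2a1 is also known from endothelial cells. The summed CPM of 8 endothelial markers was 282 to 362 without ethanol and 246 to 461 with it in wild type, and 282 to 403 and 318 to 379 in the labelled knockout. None of those markers was at 0, 2 of the 8 were higher with ethanol in each label and none was lower. Their part in the result was not tested, and in whole liver a change in cell numbers and a change in RNA per cell cannot be told apart.

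Slco3a1, a broadly expressed organic anion carrier, had CPM of 4.77, 6.46 and 4.68 in pair-fed and 9.60, 10.3 and 7.30 in ethanol-fed mice labelled knockout. The groups did not overlap, and the log2 fold change was 0.78 ± 0.20 (adjusted p = 0.0151), a call lost without pair-fed replicate 1 or 3 or ethanol-fed replicate 2. In wild type it went from 4.73, 6.55 and 6.84 to 7.77, 9.06 and 7.90 CPM without passing (0.45 ± 0.20, adjusted p = 0.105). Slc22a21, a carnitine carrier of the mouse, was below 1 CPM on average and was called higher in wild type (1.73 ± 0.53, adjusted p = 0.0229), from 10, 6 and 3 reads to 13, 28 and 28, and lost the call without replicate 2 or 3 of either feeding group. It shares 24.15% of its 50-base stretches with other genes, nearly all with the carnitine carrier gene Slc22a5. Slco4a1, which carries thyroid hormone, was likewise scarce, at 1.00 ± 0.13 CPM in wild type pair-fed mice (SD, n = 3), and was called lower in the labelled knockout (-1.39 ± 0.41, adjusted p = 0.0256). That call was lost with group weights and without pair-fed replicate 1 or 2 or ethanol-fed replicate 1 or 3.

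Slco1b2 (chr6:141629518-141686635), the uptake gene with the highest level, fell in both labels. Wild type CPM were 1308, 1348 and 1430 without ethanol against 888, 534 and 537 with it, and 1743, 1204 and 1627 against 893, 743 and 772 in the labelled knockout. No ethanol-fed mouse reached the lowest pair-fed mouse of its label. The log2 fold changes were -1.06 ± 0.20 (adjusted p = 0.00192) and -0.93 ± 0.20 (adjusted p = 0.00612), and these calls held under every alternative run. The summed CPM of 7 hepatocyte markers, led by Alb, went from 150000 to 152000 down to 82500 to 114000 in wild type, and from 140000 to 161000 down to 75100 to 133000 in the labelled knockout. Of those 7 markers 2 were called lower in wild type, and 1 was called higher in the labelled knockout, and their part in the fall of Slco1b2 was not tested.

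The 250 bases before the RefSeq start of Slco1b2 are shown because Slco1b2 had the highest level of the 39 genes and fell. The sequence is from RefSeq on GRCm38.p6, plus strand, 5′ to 3′, and the capitals mark matches to TTCNNNGAA (from position -206 to -198) and to the reverse complement of AGGTCA (from -81 to -76), counted back from the start.
Slco1b2, chr6:141629268-141629517: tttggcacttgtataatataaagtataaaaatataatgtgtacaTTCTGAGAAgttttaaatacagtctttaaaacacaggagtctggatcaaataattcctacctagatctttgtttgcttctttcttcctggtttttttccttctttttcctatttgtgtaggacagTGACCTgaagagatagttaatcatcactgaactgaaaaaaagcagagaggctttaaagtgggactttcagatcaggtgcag
TTCNNNGAA is the core bound by STAT5 and AGGTCA the core motif of nuclear receptors. Searched on both strands in windows from 250 bases before to 50 after the start, TTCNNNGAA was present in 8.3% of 32851 RefSeq promoters and in 6 of the 36 promoters listed for 30 of the 39 genes. AGGTCA was present in 16.26% of all promoters and in 10 of those 36. Other motifs were searched as well. TGACNNNGC, of the antioxidant response element, was in 5 of the 36 (12.39% of all), GCGTG, of the xenobiotic response element, in 8 (32.39%), and the E-box CACGTG and the AP-1 motif TGANTCA in 1 each (7.15% and 7.81%). These matches describe letters only, and binding was not measured.

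A run of Slc22a genes on chromosome 19, a group of organic anion transporter genes that is expanded in rodents, was lower after ethanol or did not pass. Slc22a30 (chr19:8335623-8405105) had wild type CPM of 43.8, 44.5 and 53.3 without ethanol and 19.1, 19.3 and 12.5 with it. In the labelled knockout it went from 68.8, 58.3 and 68.0 to 23.5, 31.7 and 32.6. Ethanol-fed and pair-fed mice were separate in both labels, at -1.48 ± 0.18 (adjusted p = 0.000168) and -1.15 ± 0.18 (adjusted p = 0.00095). Its neighbour Slc22a29 (chr19:8160168-8218839) had fewer reads, at 4.73, 3.39 and 4.85 CPM against 1.35, 3.19 and 2.05 in wild type and 8.08, 7.75 and 4.68 against 1.79, 2.41 and 3.62 in the labelled knockout. The fall passed in the labelled knockout (-1.40 ± 0.34, adjusted p = 0.00995) and narrowly in wild type (-0.98 ± 0.34, adjusted p = 0.0422), where 11 of 20 alternatives took the call away (adjusted p over all 20 from 0.0162 to 0.12). They were total counts, group weights, only the 2 groups compared, the replicate block, and the fits without pair-fed replicate 1 or 3 or ethanol-fed replicate 1 or 3 of wild type, or pair-fed replicate 1 or 2 or ethanol-fed replicate 2 of the labelled knockout. Slc22a27 (chr19:7864389-7966027) fell in the labelled knockout from 71.2, 65.2 and 65.0 to 38.8, 44.9 and 47.4 CPM (-0.62 ± 0.13, adjusted p = 0.00525). In wild type its log2 fold change was -0.36 ± 0.13 (adjusted p = 0.051, and called in 7 of 20 alternatives). Slc22a26 (chr19:7781981-7802667) fell in the labelled knockout from 231.1, 221.0 and 223.8 to 161.7, 176.7 and 165.4 CPM (-0.42 ± 0.12, adjusted p = 0.0246), a call lost under total counts and without any 1 of the 3 pair-fed mice or ethanol-fed replicate 1 or 3, and was at -0.19 ± 0.12 (adjusted p = 0.259) in wild type. Reads can be shared within this group: 34.32% of the 50-base stretches of Slc22a30 transcripts also occur in another gene, mostly Slc22a28, as do 29.92% for Slc22a27 and 29.84% for Slc22a29, so the split between these genes is uncertain.

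The upstream sequences of Slc22a29 and Slc22a30 are shown because both neighbours fell in both labels. They are 250 bases before each RefSeq start on GRCm38.p6, minus strand, 5′ to 3′, and capitals mark 4 runs of at least 12 bases that are identical and in the same order in both.
Slc22a29, chr19:8218901-8219150: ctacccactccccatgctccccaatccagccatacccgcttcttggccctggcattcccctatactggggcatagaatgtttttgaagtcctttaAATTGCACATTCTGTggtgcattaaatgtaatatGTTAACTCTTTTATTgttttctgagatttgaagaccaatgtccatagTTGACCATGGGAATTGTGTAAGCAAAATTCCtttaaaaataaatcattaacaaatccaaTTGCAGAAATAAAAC
Slc22a30, chr19:8405106-8405355: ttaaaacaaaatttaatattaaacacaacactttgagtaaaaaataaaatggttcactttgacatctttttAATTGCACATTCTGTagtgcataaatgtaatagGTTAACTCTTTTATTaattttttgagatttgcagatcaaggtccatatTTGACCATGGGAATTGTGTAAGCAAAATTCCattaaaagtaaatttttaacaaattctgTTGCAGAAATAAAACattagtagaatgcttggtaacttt
The runs were 15, 15, 31 and 15 bases long, and the longest began 74 bases before the start of Slc22a29 and 98 bases before that of Slc22a30. In a global alignment of the promoter windows the pair was 66.5% identical. Among 34 pairs of these genes on a shared chromosome, each taken by its most alike windows, the next value was 51.5% and the median 47.1%. The shared letters are a description of 2 related neighbours, and nothing was measured on the promoters.

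Several other uptake carriers did not pass in either label. Slco1a4 and Slco2b1, organic anion carriers of the sinusoidal membrane, had log2 fold changes of 0.19 and -0.04 in wild type and 0.13 and 0.22 in the labelled knockout. Slc22a5, the high-affinity carnitine carrier, was at -0.47 in both labels, and Slc22a7, an organic anion carrier, at 0.30 and -0.07. Slc22a4, which carries ergothioneine, was at 0.82 ± 0.32 in wild type (adjusted p = 0.0626) and 0.21 ± 0.34 in the labelled knockout (adjusted p = 0.679). In wild type its groups did not overlap, and 4 of 20 alternatives called it higher. They were total counts, DESeq2 (adjusted p = 0.0492), and the fits without wild type ethanol-fed replicate 1 or 2.

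Slco1a1, an organic anion carrier known to be higher in male than in female mouse liver, varied widely between mice of 1 group. Wild type CPM were 13.7, 16.0 and 4.15 without ethanol and 96.6, 2.62 and 3.13 with it. Labelled knockout CPM were 404.7, 99.0 and 917 without ethanol and 156.6, 6.89 and 123 with it. The ethanol-fed and pair-fed values overlapped in both labels, with log2 fold changes of 1.60 ± 1.47 and -2.31 ± 1.45 (adjusted p = 0.435 in wild type and 0.273 in the labelled knockout).

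Among the Slc22a genes of other or poorly known function, Slc22a15 (chr3:101855771-101924453) rose in both labels. Its CPM were 6.56, 5.03 and 6.31 against 13.4, 20.9 and 23.8 in wild type, and 6.80, 5.06 and 5.89 against 19.6, 14.0 and 19.96 in the labelled knockout. No pair-fed mouse reached an ethanol-fed one, and the log2 fold changes were 1.70 ± 0.23 (adjusted p = 0.000255) and 1.59 ± 0.23 (adjusted p = 0.00062). Slc22a17, a receptor for lipocalin 2, Slc22a18 and Slc22a23 did not pass in either label and lay between -0.31 and 0.16.

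**Figure D3:**
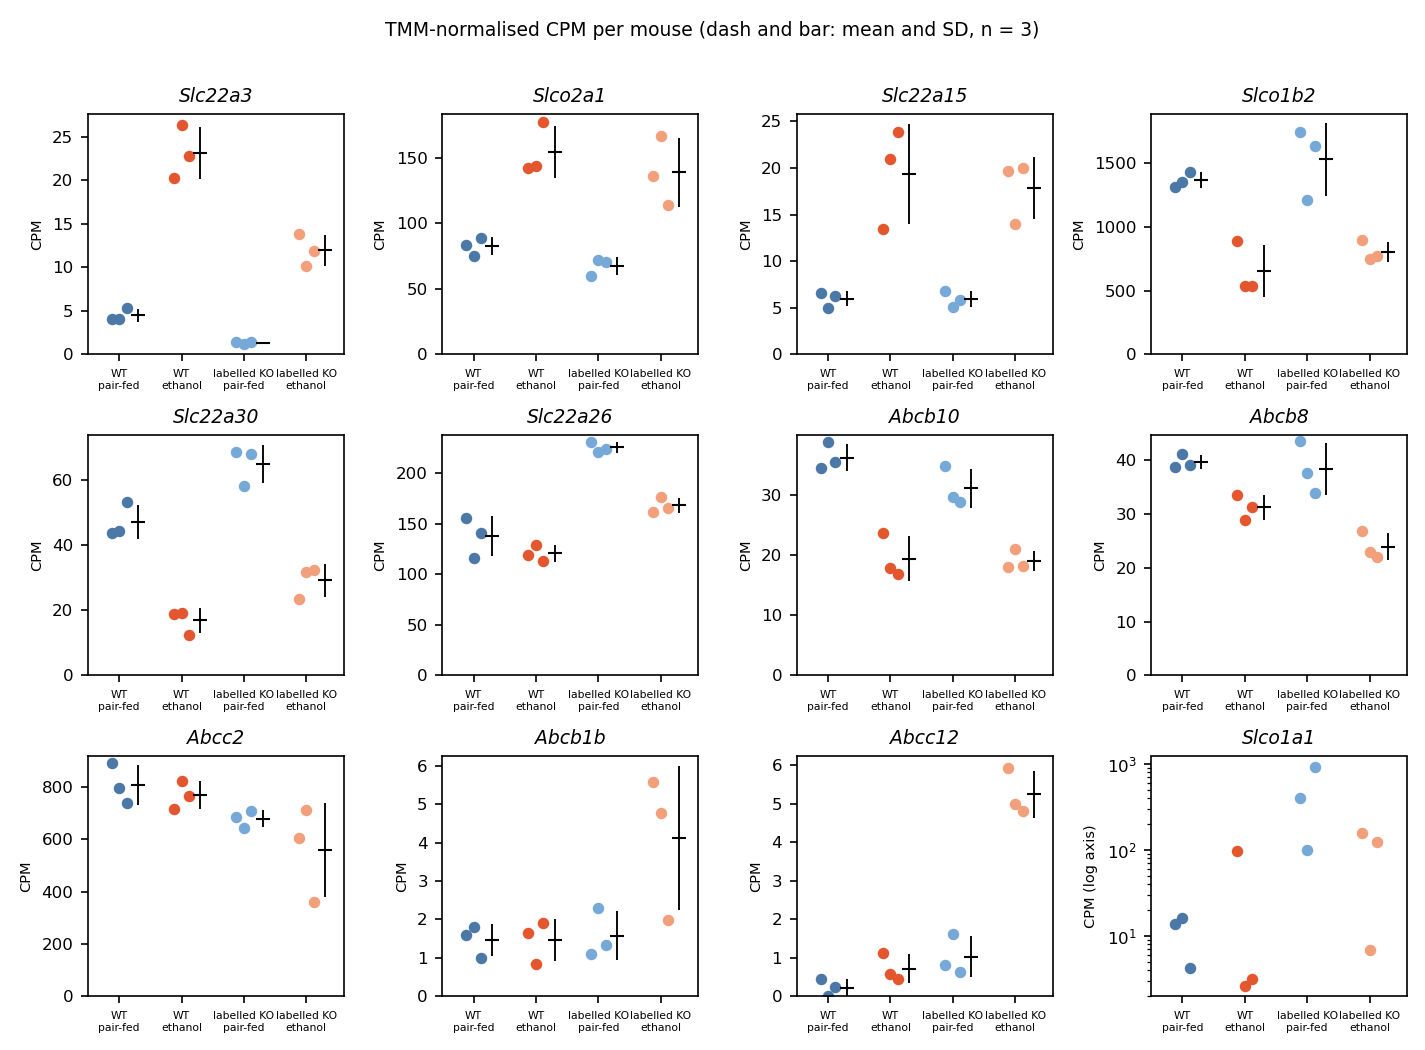
TMM-normalised CPM of 12 transporter genes in each mouse, by group, with the mean and SD of 3 mice beside the points (Slco1a1 on a log axis, points only). Slc22a3, Slco2a1 and Slc22a15 are higher and Slco1b2, Slc22a30 and Abcb10 lower in every ethanol-fed mouse than in any pair-fed mouse of the same label; Abcc2 values overlap between the feeding groups of each label.

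The exporters with the highest levels did not pass under ethanol. Abcc2 had CPM of 890.5, 796.9 and 738.8 in pair-fed wild type and 716, 825 and 766 after ethanol (log2 fold change -0.07 ± 0.20, adjusted p = 0.806, interval -0.50 to 0.35). In the labelled knockout it went from 684.5, 644 and 709 to 604, 714 and 362, with 1 low mouse (-0.28 ± 0.20, adjusted p = 0.323). Abcb4 was at 307, 411 and 439.6 against 337, 396 and 507 CPM in wild type, giving 0.10 ± 0.16 on the log2 scale (adjusted p = 0.674), and 0.14 ± 0.16 in the labelled knockout (adjusted p = 0.56). Abcg2, the canalicular pump of sulfated conjugates and drugs, was at 0.09 ± 0.13 and 0.12 ± 0.13. Abcc6, a sinusoidal transporter needed for the release of ATP, was at -0.30 ± 0.13 in wild type, with an adjusted p of 0.0923 by edgeR and 0.0499 by DESeq2 (0.0499 to 0.473 over the alternatives), and at -0.10 ± 0.13 in the labelled knockout. The other exporters in wild type lay between Abcc5 at -0.35 ± 0.19, with groups that did not overlap, and Abcc1 at 0.41 ± 0.23.

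Abcb1b (chr5:8798147-8866314), 1 of 2 mouse genes for the drug pump P-glycoprotein, was the exporter that passed. Its CPM in the labelled knockout were 1.11, 2.30 and 1.33 without ethanol and 5.57, 4.76 and 2.00 with it, so the lowest ethanol-fed mouse lay within the pair-fed range. The log2 fold change was 1.38 ± 0.41 (adjusted p = 0.0285). The call was lost when pair-fed replicate 1 or 3, or ethanol-fed replicate 1 or 2, of the labelled knockout was left out (log2 fold changes over all alternatives 1.10 to 1.76). In wild type the CPM were 1.60, 1.81 and 0.994 against 1.66, 0.855 and 1.90, a log2 fold change of 0.01 ± 0.44. Abcb1b shares 19.41% of its 50-base stretches with other genes, most of them with Abcb1a, which did not pass (-0.13 ± 0.24 and -0.25 ± 0.24).

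Several ABC transporters of the organelles were lower after ethanol. Abcb10, an inner mitochondrial membrane transporter needed for haem synthesis, fell from 34.4, 38.7 and 35.5 to 23.6, 17.8 and 16.8 CPM in wild type and from 34.7, 29.6 and 28.9 to 17.97, 21.0 and 18.2 CPM in the labelled knockout. These groups did not overlap, and the log2 fold changes were -0.90 ± 0.15 (adjusted p = 0.000762) and -0.71 ± 0.15 (adjusted p = 0.00459). Abcb8, of the inner mitochondrial membrane, fell in the labelled knockout from 43.5, 37.6 and 33.9 to 26.8, 23.0 and 22.0 CPM (-0.68 ± 0.13, adjusted p = 0.0027), and in wild type gave -0.35 ± 0.13 (adjusted p = 0.0511, and called in 7 of 20 alternatives). Abcb6, a porphyrin transporter, was called lower in wild type, from 127.5, 124.7 and 137.4 to 100.2, 115.3 and 86.9 CPM (-0.37 ± 0.12, adjusted p = 0.0304). That call was lost in 7 of 20 alternatives, which were total counts, only the 2 groups compared, and the fits without any 1 of the 3 wild type pair-fed mice or wild type ethanol-fed replicate 1 or 3. The annotated gene Gm29253 covers 91.0% of the exonic bases of Abcb6 on the same strand, so its counts depend on how shared reads were assigned. Abcb9, a lysosomal peptide transporter, was at -0.74 ± 0.34 and -1.02 ± 0.36 (adjusted p = 0.106 and 0.0512, the latter called in 8 of 20 alternatives).

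Summed per mouse, uptake transcripts were lower after ethanol while exporter transcripts overlapped. The summed RPKM of the 17 uptake carriers was 946 to 1050 in wild type pair-fed and 652 to 759 in wild type ethanol-fed mice, and 996 to 1340 and 719 to 854 in the labelled knockout. That of the 10 exporters was 330 to 333 and 295 to 339 in wild type, and 315 to 326 and 260 to 339 in the labelled knockout. The uptake sum divided by the exporter sum ranged from 2.85 to 3.17 in pair-fed and from 1.92 to 2.58 in ethanol-fed wild type mice. In the labelled knockout the ratio was 3.17 to 4.14 and 2.12 to 3.05. The ethanol-fed and pair-fed ratios did not overlap in either label. The exporter sum and the ratio leave out the 5 genes excluded by name. Of those, 3 were higher and 1 lower with ethanol in wild type, and 2 higher and 2 lower in the labelled knockout. The sums follow the few genes with the highest levels and were not tested. In wild type the mean uptake sum went from 983 to 708 RPKM, and Slco1b2 alone from 413 to 198 RPKM. In the labelled knockout the mean uptake sum went from 1210 to 788 RPKM, and Slco1b2 from 463 to 243 RPKM. Much of the fall in the uptake sum is therefore that of Slco1b2. Of the 17 uptake carriers 8 had a positive log2 fold change in wild type and 7 in the labelled knockout. In the labelled knockout the sums also hold Slco1a1, at 119 ± 104 RPKM in pair-fed and 24.1 ± 19.8 RPKM in ethanol-fed mice (SD, n = 3), which was not called.

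**Figure D4:**
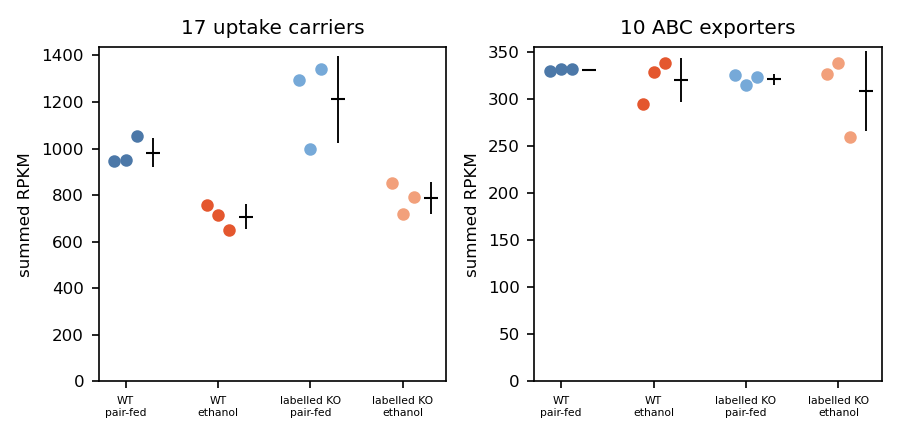
Summed RPKM of 17 uptake carriers and 10 exporters in each mouse, by group, with the mean and SD of 3 mice. Uptake sums are lower in every ethanol-fed mouse than in any pair-fed mouse of the same label, and exporter sums overlap. The 5 genes left out by name are not in the sums.

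By genotype label, few of these genes differed. In pair-fed mice 2 of the 39 passed, Slc22a26 higher and Slc22a3 lower in the labelled knockout. This is 5.13% of the 39, against 0.87% of all genes (0.702% higher and 0.168% lower). In ethanol-fed mice 2 passed, Abcc12 higher and Slc22a3 lower, again 5.13% of the 39, against 1.13% of all genes (0.756% higher and 0.374% lower). These counts are small and moved with the method: DESeq2 called 4 and 6, and the authors' deposited table has an FDR under 0.05 for 4 and 5. In pair-fed mice the count fell to 1 when wild type replicate 2 or 3, or any 1 of the 3 labelled knockout mice, was left out. In ethanol-fed mice it was 5 without wild type replicate 1, 0 without wild type replicate 2, and 1 without labelled knockout replicate 2 or 3.

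Slc22a3 was lower in the labelled knockout under both diets, by a log2 fold change of -1.72 ± 0.21 when pair-fed (adjusted p = 0.000849) and -0.95 ± 0.17 when ethanol-fed (adjusted p = 0.013). The pair-fed call held in every alternative, and the ethanol-fed call was lost in 5 of 20. They were limma-voom with weights per group, only the 2 groups compared, and the fits without ethanol-fed wild type replicate 2 or labelled knockout replicate 2 or 3. Slc22a26 was higher in pair-fed mice labelled knockout, at 231.1, 221.0 and 223.8 CPM against 155.4, 116.1 and 140.6 in wild type. The groups did not overlap (0.71 ± 0.12, adjusted p = 0.0133), but the call was lost without wild type replicate 2 or 3 and without any 1 of the 3 labelled knockout mice. After ethanol the values also did not overlap, with a log2 fold change of 0.48 ± 0.12 (adjusted p = 0.0884). Slc22a30 gave 0.46 ± 0.18 and 0.79 ± 0.18 in pair-fed and ethanol-fed mice (adjusted p = 0.409 and 0.0555). The latter passed with DESeq2 and without ethanol-fed replicate 1 of either label, and the authors' deposited table gives it an FDR of 0.00723. The genotype contrasts use the same mice as the ethanol contrasts.

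In ethanol-fed mice 2 more genes did not pass by edgeR, while the authors' deposited table gives them an FDR of 0.0278 (Abcb1b) and 0.0392 (Slc22a4). Abcb1b was at 1.66, 0.855 and 1.90 CPM in wild type and 5.57, 4.76 and 2.00 CPM in the labelled knockout, with no overlap (1.48 ± 0.41, adjusted p = 0.12, with 0.032 to 0.538 over the alternatives). Slc22a4 was at 5.70, 4.96 and 11.5 CPM in wild type and 4.09, 3.34 and 2.81 CPM in the labelled knockout, also with no overlap (-1.11 ± 0.32, adjusted p = 0.129, with 0.0352 to 0.499 over the alternatives). DESeq2 called both.

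Abcc12 (chr8:86504841-86566590), an ABC gene of unsettled function, was near the limit of counting in 3 groups. Its reads were 8, 0 and 4 in wild type pair-fed, 14, 29 and 11 in labelled knockout pair-fed, 22, 10 and 9 in wild type ethanol-fed and 116, 91 and 77 in labelled knockout ethanol-fed mice. The last group stood above all others. The log2 fold change was 2.34 ± 0.47 for ethanol in the labelled knockout (adjusted p = 0.0041) and 2.84 ± 0.49 for the label in ethanol-fed mice (adjusted p = 0.013, lost without wild type ethanol-fed replicate 2 and with limma-voom with weights per group). For ethanol in wild type it was 1.62 ± 0.67 (adjusted p = 0.0796), which passed with DESeq2 and without wild type pair-fed replicate 1. For the label in pair-fed mice it was 2.12 ± 0.65, with groups that did not overlap. That difference did not pass by edgeR (adjusted p = 0.224) but did with DESeq2 (adjusted p = 0.0233). The authors' deposited table gives it an FDR of 0.0114.

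Slco1a1 had the largest estimated label difference, 5.39 ± 1.68 on the log2 scale in pair-fed mice, and did not pass by edgeR (adjusted p = 0.282). All 3 labelled knockout values, 99.0 to 917 CPM, lay above the wild type values of 4.15 to 16.0 CPM. DESeq2 gave an adjusted p of 0.00865, within a range of 0.00865 to 0.629 over the alternatives, and the authors' deposited table gives an FDR of 0.0285. Groups did not overlap for 13 of the 39 genes in pair-fed mice (24.4% of all genes) and for 10 in ethanol-fed mice (12.8% of all genes).

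The response to ethanol was not shown to depend on the label for any of the 39 genes. With the interaction tested in edgeR, 0 of 39 passed, against 0.00764% of all genes, and 2 had an unadjusted p under 0.05; DESeq2 called 0. Those were Slc22a3, whose rise was larger by 0.77 ± 0.26 in the labelled knockout (adjusted p = 0.936), and Abcb1b, at 1.37 ± 0.61 (adjusted p = 0.936). A threshold missed does not show equal responses: intervals lay within a 2-fold difference for 10 of 17 uptake carriers and 9 of 10 exporters.

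Related genes outside the 39 were read from the same fit. Of the 5 genes left out by name, 3 were higher and 1 lower with ethanol in wild type, and 2 were higher and 2 lower in the labelled knockout. Abcc4 and Abcc3, which export bile acids and conjugates back to the blood, rose by log2 fold changes of 3.79 ± 0.41 and 1.11 ± 0.17 in wild type and 2.58 ± 0.39 and 0.80 ± 0.17 in the labelled knockout (adjusted p from 0.000134 to 0.00469). A count or a sum over exporters therefore depends on where the family is cut. Of 14 other organic solute carriers in the table (17 listed), 2 were higher and 5 lower in wild type and 1 higher and 5 lower in the labelled knockout. The nucleoside carrier gene Slc29a1 was lower in both (-0.90 ± 0.19 and -0.74 ± 0.19) and the lactate carrier gene Slc16a1 higher in both (0.97 ± 0.19 and 0.63 ± 0.19).

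Among 15 genes of nuclear receptors, other transcription factors and hormone receptors known to act on transporter genes, 1 was higher and 6 were lower with ethanol in each label. Ppara, the fatty acid receptor, fell by 1.94 and 1.44 on the log2 scale, and Nr0b2, a repressor induced by bile acids, fell by 1.95 and 1.78. Ghr and Prlr, the receptors of growth hormone and prolactin, were lower in both labels as well. Of 11 target genes of xenobiotic, oxidative stress and lipid receptors, 4 were higher and 1 lower in wild type and 3 higher and 1 lower in the labelled knockout. Cyp2b10, a target of the receptor CAR, rose by 7.31 ± 0.22 and 4.01 ± 0.19. Its mean CPM was 8.11 in pair-fed wild type and 64.5 in pair-fed labelled knockout mice, and with ethanol 1287 and 1039. The smaller rise in the labelled knockout thus began from a higher pair-fed level. By the interaction test 1 of the 11 target genes passed, against 0.00764% of all genes. Nothing here measured whether these factors act on the transporter genes.

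Markers of resident macrophages differed as well. Of 11 Kupffer cell markers 10 were lower with ethanol in the labelled knockout. There their summed CPM went from 592 to 753 down to 273 to 365. In wild type 0 passed by edgeR (0 also at an unadjusted p under 0.05), and the sums of 396 to 593 and 278 to 655 overlapped. Still, 10 of the 11 log2 fold changes in wild type were negative (median -0.29). By the interaction test in edgeR 0 of the 11 passed, with 6 at an unadjusted p under 0.05. In pair-fed mice all 11 estimates were higher in the labelled knockout (median 0.429), and 0 passed. Of 4 cholangiocyte markers in the table (Cftr was not analysed here) the summed CPM was 7.24 to 11.5 and 10.6 to 11.1 in wild type, and 8.02 to 13.6 and 12.4 to 23.7 in the labelled knockout. No marker was at 0 in any group, and the part of either cell type in the results on these transporters was not tested.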

How the data were processed

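RNA-seq read counts of 12 mouse livers were used. The authors' tools, per the submitters' processing notes, include STAR 2.5, edgeR 3.20.8, Subread 1.5.3 with featureCounts, and build mm10. No source used here gives the strand setting or the handling of shared reads. The authors deposited whole-number counts, not normalised, and, per the file headers, log2 CPM and log2 fold changes with p-values and FDR of their genotype comparisons; their log2 CPM match TMM values with a prior count of 0.25 within 7.59e-06. Counts of all 13097 genes (all pass filterByExpr) were fitted in edgeR 4.0.16 under R 4.3.3 with TMM, robust quasi-likelihood and a coefficient for each group, which leaves 8 degrees of freedom. The 5 contrasts were adjusted by Benjamini-Hochberg over all genes, with a threshold of 0.05. Standard errors were taken as the size of the log2 fold change divided by the root of its F statistic. Replicates differed beyond sampling noise (chi-square over its degrees of freedom, 12.9 to 114). Genes given in full passed in at least 1 contrast and had a mean of at least 1 CPM; other values are named for level, class or context. The members and lists were chosen with earlier results of these data known. Alternatives were median-of-ratios factors, total counts, a filter of 1 CPM in 6 libraries, DESeq2 1.42.0, limma-voom 3.58.1 with and without group weights, only the 2 groups compared, a replicate block and leaving out each mouse. A planned comparison of protein sequences was replaced by 50-base stretches shared between Gencode transcripts. Of the 39 genes 30 matched a RefSeq promoter. The fitting code was tested on simulated data. A few genes that entered these counts are not reported here by name.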

Additional observations from a re-analysis of the deposited data

How the results depend on the processing

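Of 29 calls on single genes, 17 kept their direction and call in every alternative and 12 lost the call in at least 1; none changed sign. Of 166 results not called, 22 were called in at least 1 alternative. The count of genes called was 10 for ethanol in wild type and 15 in the labelled knockout. Both counts were higher with DESeq2, which kept every edgeR ethanol call and added others. For genotype the count was 2 in pair-fed mice, but 4 with DESeq2, 4 with limma-voom with weights per group and 4 with only the 2 groups compared. For genotype in ethanol-fed mice it was 2, but 6 with DESeq2, 0 with limma-voom with weights per group, 1 with only the 2 groups compared and 1 with genes kept only at 1 CPM or more in 6 libraries. For exporters under ethanol in wild type it was 0, but 1 with DESeq2. Causes were not tested. Leaving out each mouse in turn gave 6 to 13 genes for ethanol in wild type, 11 to 18 in the labelled knockout, 1 to 2 for genotype without ethanol and 0 to 5 with it, and 0 for the interaction. It gave 4 to 9 and 6 to 10 uptake carriers, and 0 to 1 exporters in each label. Replicate numbers did not pair the mice (same-number correlations of deviations from -0.186 to 0.117); with the replicate block the counts were 9 and 16 for ethanol, 2 and 2 for genotype and 0 for the interaction. The widest intervals were those of Slco1a1, which varied widely between mice, and 3 mice per group limit all contrasts.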
